A study of Mus musculus with 12 samples.

Results

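The matrix metalloproteinases (MMPs) Mmp8, Mmp9, Mmp12, Mmp13, Mmp14 and Mmp25, their tissue inhibitors Timp1 and Timp2, and the thrombospondins Thbs1 and Thbs4 were followed in bone marrow-derived macrophages (BMDM) through an inflammatory stimulus. These 10 genes were taken by symbol from the 43280 genes of the deposited expression table, and all 10 had values in it. BMDM are macrophages grown in culture from bone marrow cells, here with the growth factor M-CSF. Marrow came from wild type (wt) or Treml4-/- mice, which lack the myeloid receptor Treml4, and both genotypes were on the C57BL6 background. The cells were left unstimulated with vehicle (M0) or received 100 ng/ml of lipopolysaccharide (LPS) for 8 h (M1-8 h) or 12 h (M1-12 h). LPS is a bacterial cell wall component that drives the inflammatory M1 state. There were 2 biological replicates of each of the 6 conditions, 12 libraries in all. Ages, and whether each replicate was 1 mouse or a pool, are not given in the sources used here, so p-values measure the spread between these cultures.

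MMPs are zinc-dependent endopeptidases that are made as inactive proforms and cut collagens, elastin, gelatins and other matrix proteins as well as cytokines. TIMPs bind the active site of MMPs and block them, so the balance of the families sets how much matrix is cleaved around a cell. Thrombospondins are secreted matricellular glycoproteins that bind matrix, cell surface receptors and proteases. In arterial plaques, macrophages are known as a main source of MMPs.

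Mmp13, Mmp12 and Mmp8 lie together on chromosome 9 of GRCm38, within 296 kb (7272514 to 7568485), in a cluster of secreted MMP genes. In the GENCODE annotation Mmp14 spans chr14:54431612-54445364, Mmp9 chr2:164940780-164955850 and Thbs1 chr2:118111876-118127133 on the plus strand. Timp1 spans chrX:20870166-20874735 on the plus strand, while Mmp25 (chr17:23628311-23645277), Timp2 (chr11:118301069-118355740) and Thbs4 (chr13:92751590-92794818) are on the minus strand. The 100 bases before the RefSeq transcription start (GRCm38.p6) are shown for Mmp13 and for the downstream start of Mmp12, neighbours of which Mmp13 rose after LPS and Mmp12 had no direction that held under every scaling, and for Timp1 and Thbs4, which had the largest fitted log2 differences between genotypes after LPS. They are written 5′ to 3′ on the gene's strand, and capitals mark matches to the searched strings.
Mmp13, chr9:7272414-7272513, plus strand: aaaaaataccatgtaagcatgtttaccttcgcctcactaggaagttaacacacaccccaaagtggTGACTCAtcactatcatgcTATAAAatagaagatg
Mmp12, chr9:7347274-7347373, plus strand: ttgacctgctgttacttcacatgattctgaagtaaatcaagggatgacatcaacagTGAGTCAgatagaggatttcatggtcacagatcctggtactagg
Timp1, chrX:20870066-20870165, plus strand: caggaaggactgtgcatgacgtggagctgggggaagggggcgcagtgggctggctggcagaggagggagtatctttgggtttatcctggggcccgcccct
Thbs4, chr13:92794819-92794918, minus strand: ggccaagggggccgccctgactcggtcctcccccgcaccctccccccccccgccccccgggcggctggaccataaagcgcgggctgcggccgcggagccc
RefSeq promoter windows of 300 bases (250 before and 50 from the start) were at hand for 8 of the 10 genes, in 9 entries. The strings were chosen after the data had been seen, TATAAA after the Mmp13 window had been read, and were searched on both strands. They were TATAAA for a TATA box, TGANTCA for AP-1, and the NF-kB consensus in a stricter and a looser form. Of 32851 promoters, 13.6% held the first, 7.81% the second, 0.411% the third and 1.63% the last. Mmp13 held TGACTCA from base -35 to -29 and TATAAA from base -16 to -11. The downstream start of Mmp12 held TGAGTCA from -44 to -38, and TATAAA just after the start, from 4 to 9. Mmp8 held TATAAA on the opposite strand across its start. The other windows held none of the strings, and neither NF-kB form was found in any of the 9 windows.

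Between 48008751 and 58500792 reads were counted per library, so 1 read was worth 0.0171 to 0.0208 CPM (reads scaled to a common library total). Treml4 had 198 to 663 reads in the 6 wt libraries and 0 in each of the 6 Treml4-/- libraries, which matched the labels. Macrophage markers were high throughout: the 6 found of 7 summed to 8113 CPM or more, and Csf1r, the M-CSF receptor, had at least 1037 CPM. At M0 they summed to 20982 to 25435 CPM in wt and 18630 to 18872 in Treml4-/- cells. At 8 h the sums were 9781 to 11112 and 8395 to 8907, and at 12 h 8468 to 8921 and 8113 to 8341. The sums were thus lower after LPS, and higher in wt at each time. Lyz2, with 10416 to 15208 CPM at M0, made up much of them and went the same way. The single markers did not all follow. Csf1r, Cd68 and Lyz2 were lower after LPS, while Fcgr1, Mertk and Itgam were higher. Fcgr1 had 59.6 to 65.1 CPM at M0 and 1105 to 1348 CPM after LPS. At 12 h Csf1r was lower in wt (1266 and 1224 CPM) than in Treml4-/- cells (1399 and 1281 CPM). Any bearing of the marker levels on the genotype comparisons below was not tested. The 4 LPS response markers found of 5 (Nos2, Il6, Tnf and Il1b) summed to 40.3 to 57.0 CPM at M0 and to 15945 to 20501 CPM after LPS. The 7 fibroblast or stroma markers summed to 1.06 to 5.34 CPM and the 3 dendritic cell markers to 0.629 to 21.9 CPM. Of the latter, Ccr7 had at most 0.285 CPM at M0 and 7.72 to 21.5 CPM after LPS. Flt3 and Zbtb46 reached at most 0.713 and 0.337 CPM in any library. The 4 Y-linked genes were read in every library, at 6.16 CPM or more. Ddx3y and Eif2s3y had 37.6 and 37.0 CPM in Treml4-/- M1-8 h replicate 2, against 11.8 and 21.0 CPM in replicate 1. Xist, the other sex marker, had 0.791 CPM in wt M0 replicate 1 and at most 0.0513 CPM elsewhere. Fewer cells of a type and less RNA per cell cannot be told apart in these bulk libraries.

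At M0, Mmp8 and Mmp12 were the most abundant of the 10 transcripts, and Thbs4 was all but absent. Levels were divided by exon length here, as CPM per kb, so that genes could be set side by side. The length was that of all annotated exons of a gene together, 2425 bases for Mmp8 and 7237 for Mmp12. It can exceed the length of the transcript that the cells make. Mmp8, the neutrophil collagenase, had 99.0 to 158 CPM per kb over the 4 M0 libraries, and Mmp12, the macrophage elastase, had 78.3 to 126, ranges that overlap. Timp2 followed at 36.8 to 43.4, below both without overlap. Mmp13 (10.8 to 13.6 CPM per kb) and Mmp14 (7.04 to 9.33) came next, also without overlap. Thbs1 had 1.84 to 3.27 CPM per kb, above Timp1, which had 0.665 to 1.26. Mmp9, at 0.267 to 0.965 CPM per kb, overlapped Timp1 above and Mmp25 (0.230 to 0.356) below. Thbs4 had at most 1 read in any M0 library. Without division by length, Mmp12 (567 to 914 CPM) stood above Mmp8 (240 to 382 CPM), and Mmp14 (41.9 to 55.6 CPM) above Mmp13 (28.8 to 36.4 CPM). The order within these pairs thus depends on the exon length.

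**Figure D1:**
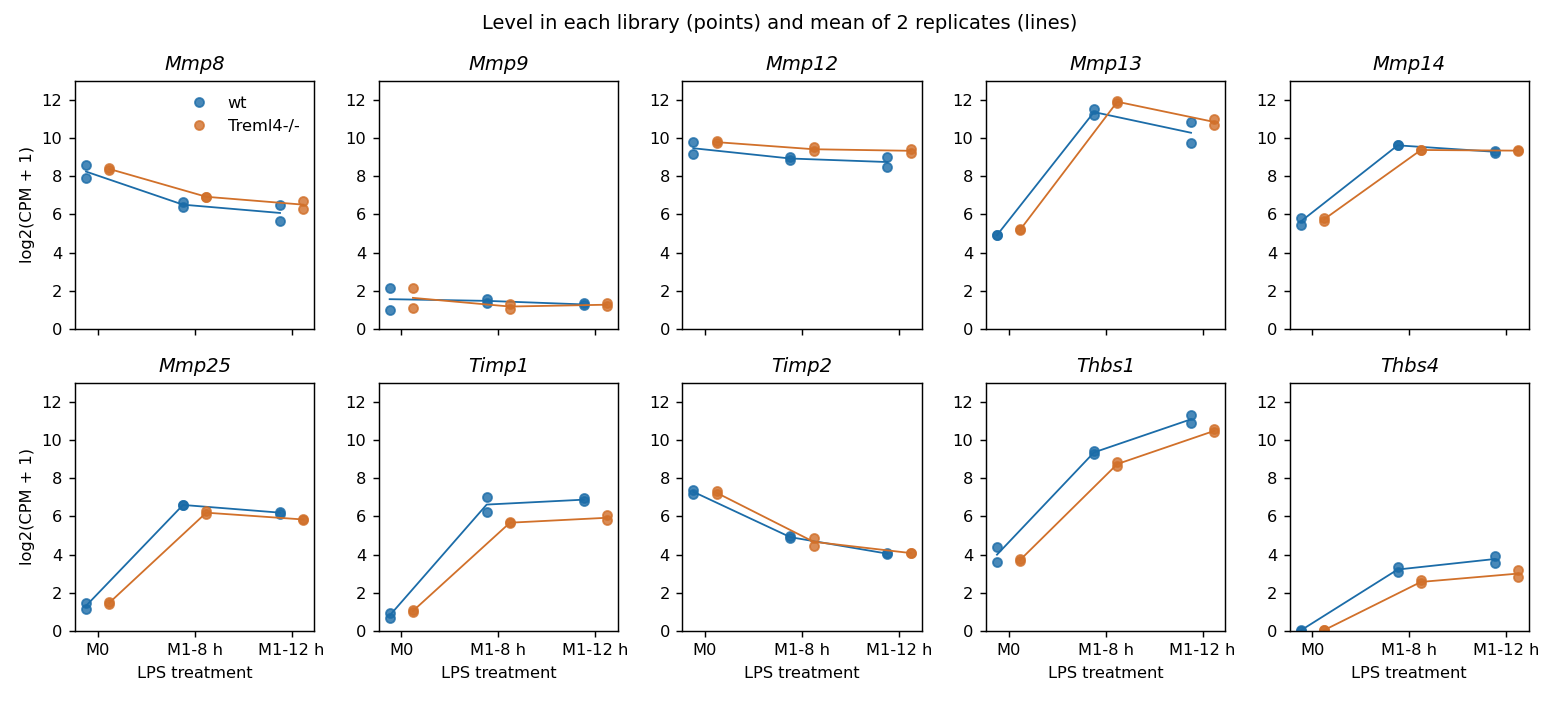
Level of each of the 10 genes in the 12 libraries, as log2(CPM + 1) against LPS treatment, for wt (blue) and Treml4-/- (orange); points are libraries and lines join the means of 2 replicates. Mmp13, Mmp14, Mmp25, Timp1, Thbs1 and Thbs4 rise from M0, Mmp8 and Timp2 go down, and Mmp9 stays near the bottom of the axis.

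The first comparison asked how LPS moved these genes over both genotypes. Tested with limma on log2(CPM + 1), 6 of the 10 genes rose and 2 fell at 8 h, and 6 rose and 3 fell at 12 h. Called genes had a limma adjusted p (Benjamini-Hochberg) below 0.05 and differed 1.4-fold or more. The background of called genes was very broad: 76.9% of the 12086 genes tested were called at 8 h and 76.5% at 12 h. The count of called members, 8 and 9 of 10, was therefore near the background. The direction differed from it: 17.1% of all genes were called higher at 8 h and 16.3% at 12 h, against 6 of 10 members each time, while 59.8% and 60.3% were called lower. The median log2 fold change was 3.35 at 8 h and 3.4997 at 12 h for the members, and -0.72 and -0.76 for all genes. With median of ratios scaling in place of total reads, all fold changes moved up, by a median of 0.75 at 8 h and 0.79 at 12 h, and the share of calls that were higher went from 22.3% to 49.8% at 8 h and from 21.2% to 50.04% at 12 h. Small falls below therefore depend on the scaling, while the 6 rises do not. Both contrasts share the M0 libraries.

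**Figure D2:**
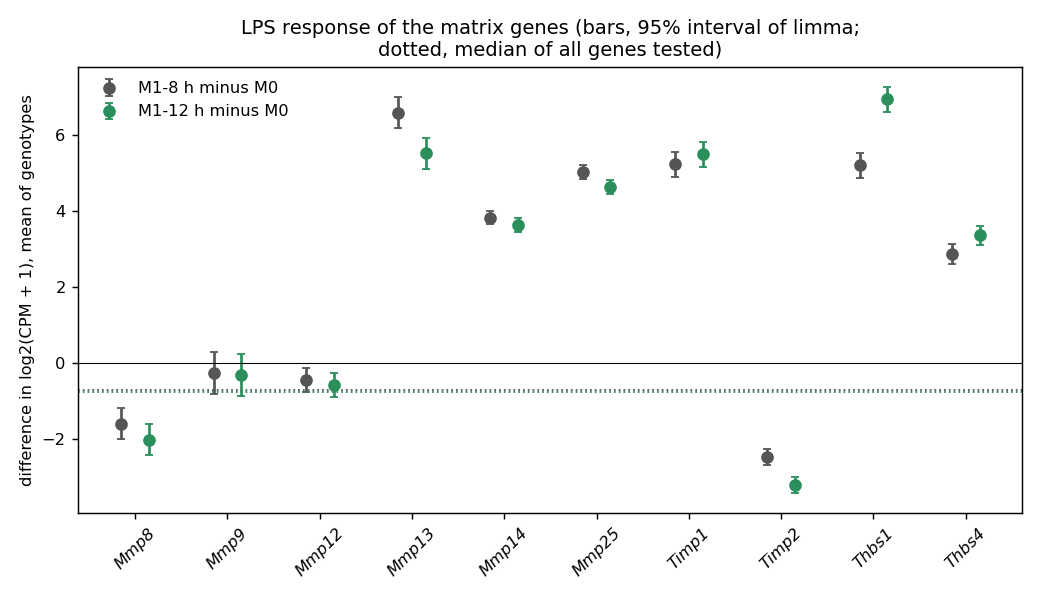
Difference in log2(CPM + 1) from M0, mean of wt and Treml4-/-, at M1-8 h (grey) and M1-12 h (green), with 95% intervals from limma; dotted lines are the medians of all genes tested (-0.72 and -0.76). Mmp13 stands highest at 8 h (6.59) and Thbs1 at 12 h (6.94), and Timp2 lowest at both (-2.48 and -3.21).

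Mmp13, the main interstitial collagenase of rodents, moved most among the proteases. The wt replicates had 28.8 and 29.3 CPM at M0, 2938 and 2387 after 8 h, and 1813 and 857 after 12 h. The Treml4-/- replicates had 36.4 and 35.2 CPM at M0, 3717 and 3997 after 8 h, and 2056 and 1658 after 12 h. All LPS libraries stood far above all M0 libraries, and all 8 h libraries above all 12 h libraries. The log2 fold change was 6.59 ± 0.18 (SE) at 8 h (adjusted p = 2.84e-11) and 5.51 ± 0.18 at 12 h (adjusted p = 1.23e-10). From 8 h to 12 h Mmp13 fell by 1.07 on the log2 scale (adjusted p = 0.000427), a comparison in which 32.1% of genes were called and 4 of the 10 members.

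The membrane-bound MMPs also rose. Mmp14 is a transmembrane collagenase that activates progelatinase A at the cell surface. It had 41.9 and 55.6 CPM in wt M0, 792 and 785 after 8 h, and 646 and 601 after 12 h. In Treml4-/- cells it had 49.9 and 54.8 CPM at M0, 673 and 659 at 8 h, and 638 and 662 at 12 h. M0 and LPS libraries did not overlap, with log2 fold changes of 3.82 ± 0.08 (SE) at 8 h (adjusted p = 3.29e-12) and 3.64 ± 0.08 at 12 h (adjusted p = 5.28e-12). Mmp25 is a leukocyte MMP held in the membrane by a lipid anchor. It went from 1.75 and 1.22 CPM in wt M0 to 95.5 and 97.2 at 8 h and to 70.0 and 75.2 at 12 h. Its Treml4-/- values were 1.65 and 1.89 CPM at M0, 76.7 and 68.5 at 8 h, and 55.1 and 57.6 at 12 h. The log2 fold change was 5.01 ± 0.08 at 8 h (adjusted p = 5.53e-13) and 4.63 ± 0.08 at 12 h (adjusted p = 1.10e-12). Between 8 h and 12 h, Mmp25 had a log2 difference of -0.38 (adjusted p = 0.00220), under the fold limit, and Mmp14 one of -0.19 (adjusted p = 0.0662).

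Mmp8 fell. The wt replicates had 382 and 240 CPM at M0, 99.4 and 81.9 after 8 h, and 88.9 and 49.7 after 12 h, and the Treml4-/- replicates had 319 and 348, then 122 and 119, then 104 and 78.1. Every LPS library lay below every M0 library. The log2 fold change was -1.60 ± 0.19 (SE) at 8 h (adjusted p = 5.83e-06) and -2.02 ± 0.19 at 12 h (adjusted p = 6.72e-07), and with median of ratios scaling it was -0.80 and -1.18, still called. Of 10 neutrophil markers, 3 were lower in every 8 h library than in every M0 library, 6 overlapped and S100a8 was higher. At 12 h, 9 were lower in this way and S100a8 was higher. Of all genes, 59.8% were called lower at 8 h and 60.3% at 12 h. Elane went from 2.58 to 11.7 CPM at M0 to 0.159 to 0.729 CPM at 12 h, and Mpo from 6.98 to 31.5 CPM to 0.516 to 1.17 CPM. The sum of the 10 markers was 48.8 to 160 CPM at M0 and 49.1 to 66.9 CPM at 12 h. At 8 h it was 72.5 to 76.5 CPM in wt and 84.6 to 109 CPM in Treml4-/- cells, within the M0 range. The wt M0 replicate with more Mmp8 (382 against 240 CPM) also had the higher sum (136 against 48.8 CPM). The part of neutrophil-lineage RNA in the Mmp8 values was not tested. From 8 h to 12 h Mmp8 did not pass (log2 difference -0.42, adjusted p = 0.0682), but did without wt M1-12 h replicate 1 (-0.63, adjusted p = 0.00776).

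Mmp12, which degrades elastin, changed little. It had 567 and 888 CPM in wt M0, 467 and 510 at 8 h, and 511 and 360 at 12 h. The Treml4-/- values were 859 and 914 CPM, then 739 and 633, then 698 and 598. The wt M0 replicates stood apart by as much as the LPS difference. The log2 difference of -0.46 ± 0.14 (SE) at 8 h had an adjusted p of 0.0105 but was under 1.4-fold. It passed without wt M0 replicate 1 (-0.62), wt M1-8 h replicate 2 (-0.49) or Treml4-/- M1-8 h replicate 1 (-0.51), was 0.34 with median of ratios scaling, and passed at -0.75 with quantile normalization (adjusted p = 0.000426). At 12 h the value of -0.59 ± 0.14 passed (adjusted p = 0.00220). It passed at 12 h neither without wt M0 replicate 2 (-0.43) nor without wt M1-12 h replicate 2 (-0.46), and it was 0.26 with median of ratios scaling (adjusted p = 0.148) but -0.79, still called, with quantile normalization, so the direction of Mmp12 depends on the scaling. The 12 h value of -0.59 was close to the median of all genes, -0.76.

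Mmp9, the gelatinase B that is stored in neutrophil granules and also made by macrophages, was low in all conditions. It had 3.41 and 0.944 CPM in wt M0, 1.57 and 1.95 at 8 h, and 1.52 and 1.33 at 12 h. In Treml4-/- cells the values were 1.16 and 3.37 CPM, then 1.44 and 1.06, then 1.27 and 1.53. In each genotype 1 of the 2 M0 replicates was high, so M0 spanned the LPS values. The log2 difference was -0.27 ± 0.25 (SE) at 8 h (adjusted p = 0.320) and -0.32 ± 0.25 at 12 h (adjusted p = 0.249). Without wt M0 replicate 2 it passed at both times (-0.57, adjusted p = 0.0243, and -0.61, adjusted p = 0.0170), and without Treml4-/- M0 replicate 1 at 12 h (-0.57, adjusted p = 0.0403). With median of ratios or quantile scaling the sign turned, to 0.22 and 0.36 at 8 h and to 0.20 and 0.39 at 12 h. The high M0 libraries were those with the highest sum of 10 neutrophil markers, 136 CPM in wt replicate 1 and 160 CPM in Treml4-/- replicate 2, against 48.8 and 120 CPM in their partners. Ltf, a neutrophil granule protein, had 18.1 and 20.1 CPM in those libraries and 4.90 and 9.29 CPM in the other M0 libraries. Not every marker went this way. Elane and Mpo had 9.11 and 22.2 CPM in Treml4-/- M0 replicate 2, below the 11.7 and 31.5 CPM of replicate 1. Ly6g, the surface marker that defines neutrophils, reached at most 0.131 CPM and had 0 reads in 6 libraries. Their part in the Mmp9 values was likewise not tested.

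**Figure D3:**
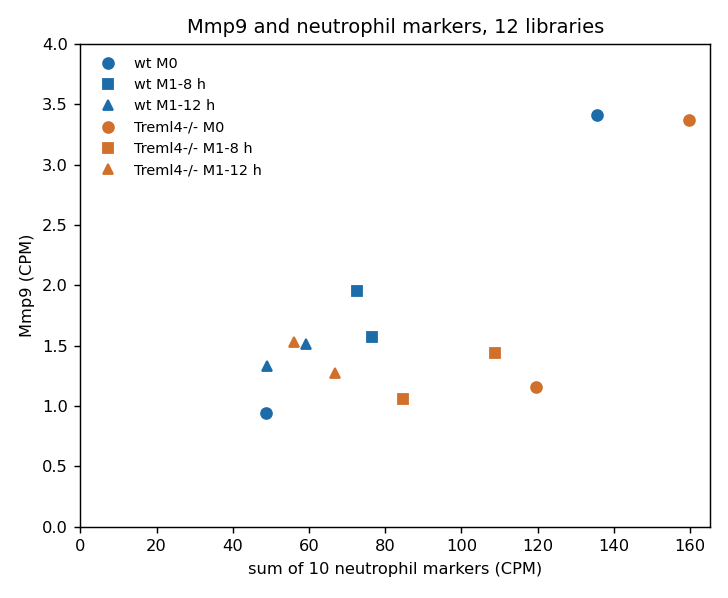
Mmp9 in CPM (vertical axis) against the summed CPM of 10 neutrophil marker genes (horizontal axis) in each of the 12 libraries; colour gives genotype and marker shape gives treatment. The wt M0 replicate 1 and Treml4-/- M0 replicate 2 libraries lie apart at the top right (3.41 and 3.37 CPM of Mmp9), while the other libraries stay below 2 CPM.

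The inhibitors moved in opposite directions. Timp1, an inducible TIMP that also acts as a growth factor, had 0.906 and 0.590 CPM in wt M0, 74.1 and 129 after 8 h, and 110 and 125 after 12 h. In Treml4-/- cells it had 1.12 and 0.991 CPM at M0, 48.9 and 51.2 at 8 h, and 55.1 and 65.5 at 12 h. The log2 fold change was 5.23 ± 0.15 (SE) at 8 h (adjusted p = 3.15e-11) and 5.49 ± 0.15 at 12 h (adjusted p = 2.38e-11). Timp2, which is usually made constitutively and takes part with Mmp14 in the activation of progelatinase A, had 144 and 169 CPM in wt M0, 27.8 and 30.5 at 8 h, and 15.2 and 15.9 at 12 h. The Treml4-/- values were 158 and 143 CPM, then 28.2 and 21.2, then 15.7 and 16.2. The 3 time points did not overlap for Timp2. It fell by 2.48 ± 0.09 on the log2 scale at 8 h (adjusted p = 2.99e-10), by 3.21 ± 0.09 at 12 h (adjusted p = 4.14e-11), and by a further 0.73 from 8 h to 12 h (adjusted p = 5.08e-05). With median of ratios scaling its log2 fold changes from M0 were -1.69 and -2.38, still called. The make-up of the pair turned over as a result: per kb, Timp1 gave 1.51% to 3.02% of the summed Timp1 and Timp2 level at M0, 88.4% to 94.9% at 8 h, and 93.9% to 97.2% at 12 h. This share is taken within a library and does not depend on its scaling. Timp1 lies within Syn1 on the opposite strand with no shared exon bases, and Syn1 had 1.39 to 4.66 CPM, more than Timp1 had at M0.

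Thbs1, which activates latent TGF-beta and binds the receptors Cd36 and Cd47, rose at each step. It had 19.9 and 11.2 CPM in wt M0, 624 and 692 after 8 h, and 1915 and 2520 after 12 h. The Treml4-/- values were 12.8 and 11.7 CPM, then 459 and 403, then 1523 and 1365. The 3 time points did not overlap. The log2 fold change from M0 was 5.20 ± 0.15 (SE) at 8 h (adjusted p = 3.36e-11) and 6.94 ± 0.15 at 12 h (adjusted p = 3.84e-12), and from 8 h to 12 h it was 1.74 ± 0.15 (adjusted p = 2.43e-06).

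Thbs4, a thrombospondin best known from tendon, muscle and heart, came from almost no reads. Reads in the wt replicates numbered 0 and 1 without LPS, 370 and 495 after 8 h, and 573 and 728 after 12 h. The Treml4-/- replicates had 1 and 1 reads, then 270 and 286, then 291 and 466. Every LPS library lay far above M0. The fitted log2 fold changes of 2.87 ± 0.11 (SE) at 8 h (adjusted p = 4.94e-10) and 3.36 ± 0.11 at 12 h (adjusted p = 1.44e-10) understate the change, since 1 CPM was added to values near 0. The ratio of pooled CPM at 8 h to M0 was 859 in wt (exact 95% interval 154 to 33969) and 252 in Treml4-/- cells (69.4 to 2085). At 12 h it was 1303 (233 to 51512) and 368 (101 to 3040). These intervals cover counting error only and rest on 1 and 2 reads at M0. From 8 h to 12 h the log2 fold change was 0.49 ± 0.11 (adjusted p = 0.00316), just past the 1.4-fold limit. It dropped under that limit without wt M1-8 h replicate 1 (0.43), wt M1-12 h replicate 2 (0.40), Treml4-/- M1-8 h replicate 1 (0.46) or Treml4-/- M1-12 h replicate 2 (0.40), and on the deposited log2 scale the adjusted p was 0.2501 (0.56).

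The make-up of the MMPs changed with LPS in every library. Per kb of exon, Mmp8 and Mmp12 together made up nearly all of the 6 MMP levels at M0, with Mmp8 at 40.8% to 61.8% and Mmp12 at 30.7% to 50.6%. Mmp13 gave 4.22% to 4.99% at M0, 77.8% to 85.2% at 8 h and 63.3% to 74.9% at 12 h. Mmp14 went from 2.76% to 3.85% at M0 to 10.4% to 19.9% at 12 h. Mmp13 per kb was 0.0893 to 0.137 times Mmp12 at M0 and 12.7 to 17.1 times Mmp12 at 8 h. Without division by length, Mmp13 had 2387 to 3997 CPM at 8 h and Mmp12 467 to 739 CPM. The size of these ratios and shares depends on the exon lengths used, 2425 bases for Mmp8, 2673 for Mmp13 and 7237 for Mmp12. The summed level of the 6 MMPs was 242 to 294 CPM per kb at M0, 1148 to 1756 at 8 h and 506 to 1026 at 12 h. Mmp9 stayed at or under 0.378% in every library.

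**Figure D4:**
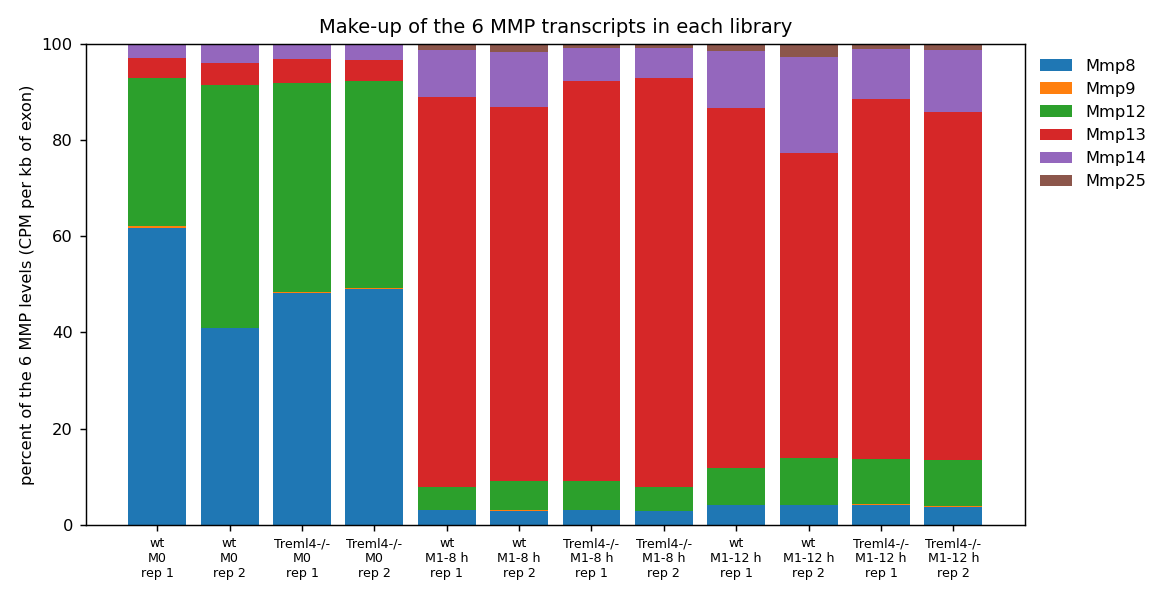
Share of each MMP in the summed level of the 6 MMPs (percent of CPM per kb of exon, vertical axis) in each of the 12 libraries. Mmp8 and Mmp12 fill the M0 bars, and Mmp13 takes 77.8% to 85.2% at M1-8 h and 63.3% to 74.9% at M1-12 h. Exon length counts all annotated exons of a gene, and the shares depend on it.

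The next comparison asked whether these genes differed between wt and Treml4-/- cells. None of the 10 was called at M0, M1-8 h or M1-12 h, where 0.0993%, 0.0910% and 0.132% of all genes were called by limma. An unadjusted p under 0.05 was reached by 0, 5 and 5 of the 10, against 3.35%, 21.0% and 7.55% of all genes. At 8 h the replicates of the genotypes did not overlap for 9 of the 10 members, with wt higher for 6 and lower for 3, against 18.0% and 33.9% of all genes. At 12 h they did not overlap for 5, with wt higher for 4 and lower for 1, against 12.3% and 30.8%. At M0 they did not overlap for 2, both lower in wt, against 18.0% of all genes lower and 10.8% higher. The 10 genes were chosen with earlier results of these data known. The shares here and below therefore describe these genes and are not a test of the families. The paper tested these data with DESeq2 at the same thresholds. Among its differing genes at M1-8 h it placed Timp1, Mmp25, Thbs1 and Thbs4, all higher in wt. The absence of calls here thus describes the limma fit used here.

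The members with the largest differences were Timp1, Thbs4 and Thbs1, which were higher in wt after LPS. Timp1, from the values above, had a log2 difference (wt minus Treml4-/-) of 0.95 ± 0.21 (SE) at 8 h (unadjusted p = 0.000855, adjusted p = 0.120) and 0.95 ± 0.21 at 12 h (adjusted p = 0.159). At M0 it was -0.24 ± 0.21 (adjusted p = 1). Its wt libraries were above the Treml4-/- libraries at both LPS times and below them at M0. The call depended on single libraries: it passed at 8 h without wt M1-8 h replicate 1 (1.35, adjusted p = 0.00966), and at 12 h when only the 4 libraries of that time were fitted (adjusted p = 0.0426) or when either wt M1-8 h replicate was left out (adjusted p = 0.0231 and 0.0239). Thbs4 differed by 0.65 ± 0.16 at 8 h (adjusted p = 0.136) and 0.76 ± 0.16 at 12 h (adjusted p = 0.142). Thbs1 differed by 0.61 ± 0.21 at 8 h (adjusted p = 0.176) and 0.61 ± 0.21 at 12 h (adjusted p = 0.480). The protease Mmp25 was also higher in wt, with 0.41 ± 0.12 at 8 h (adjusted p = 0.157) and 0.36 ± 0.12 at 12 h (adjusted p = 0.441).

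The fitted differences of the soluble collagenases and the elastase lay in the other direction, and none was called with all libraries in the fit. Mmp12 had a log2 difference of -0.49 ± 0.20 (SE) at 8 h (adjusted p = 0.214) and -0.59 ± 0.20 at 12 h (adjusted p = 0.480), and all wt libraries were below the Treml4-/- libraries at both times. Mmp13 had -0.54 ± 0.26 at 8 h (adjusted p = 0.258) and -0.57 ± 0.26 at 12 h (adjusted p = 0.660). At 12 h it passed without wt M1-12 h replicate 1 (-1.11, adjusted p = 0.0150). Mmp8 had -0.41 ± 0.26 at 8 h (adjusted p = 0.374) and -0.43 ± 0.26 at 12 h (adjusted p = 0.804). For Mmp13 and Mmp8 the libraries of the genotypes overlapped at 12 h. Mmp14, Mmp9 and Timp2 had differences within 0.30 of 0 at all 3 times. The 95% intervals at 8 h ran from -0.0089 to 0.50 for Mmp14, from -0.49 to 1.08 for Mmp9 and from -0.046 to 0.53 for Timp2, and a 1.4-fold difference was inside all of them. At 12 h they ran from -0.31 to 0.19, from -0.77 to 0.80 and from -0.32 to 0.26, and 1.4-fold was inside that of Mmp9.

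**Figure D5:**
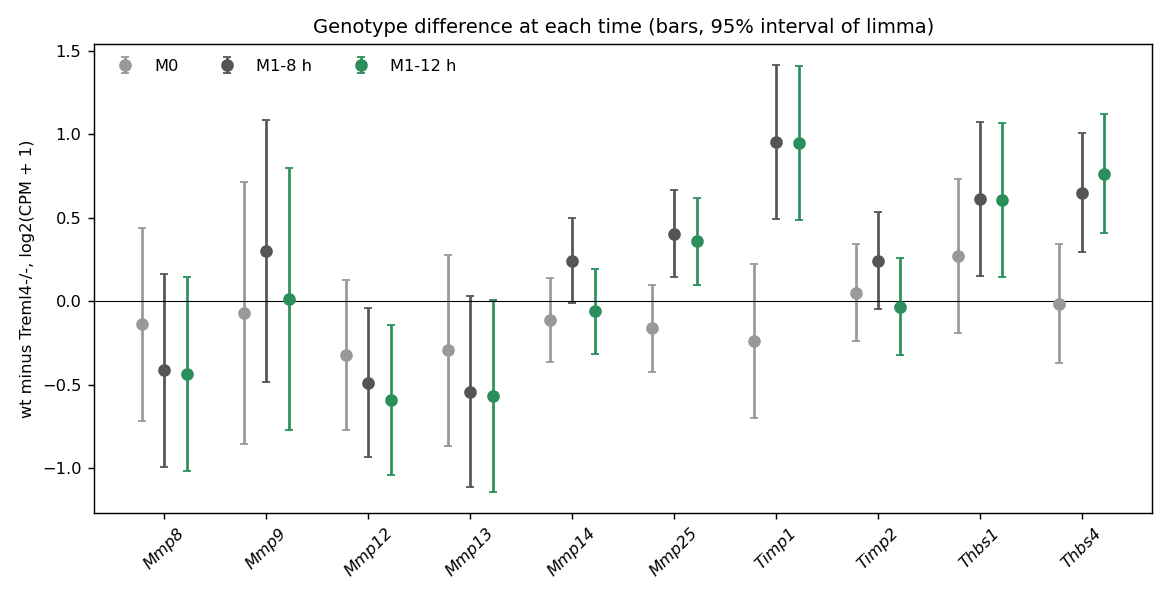
Difference between wt and Treml4-/- in log2(CPM + 1) for each gene at M0 (light grey), M1-8 h (dark grey) and M1-12 h (green), with unadjusted 95% intervals from limma. Timp1, Thbs1, Thbs4 and Mmp25 lie above 0 after LPS and Mmp12, Mmp13 and Mmp8 below it; no difference passed the adjusted threshold.

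Averaged over the 3 time points, again none of the 10 was called, where 0.414% of all genes were, and 6 of 10 had an unadjusted p under 0.05 against 20.1% of all genes. Thbs4 had the lowest adjusted p, 0.0495, with a log2 difference of 0.47 ± 0.09 (SE), under the 1.4-fold limit. Timp1 had 0.55 ± 0.12 (adjusted p = 0.0628), Thbs1 0.50 ± 0.12 (adjusted p = 0.0880) and Mmp12 -0.47 ± 0.12 (adjusted p = 0.0967). With median of ratios scaling Timp1 (0.65, adjusted p = 0.0328), Thbs1 (0.58, adjusted p = 0.0328) and Thbs4 (0.54, adjusted p = 0.0266) were called. Leaving out single wt libraries also gave calls: Timp1 without M0 replicate 1 (0.51) or M1-8 h replicate 1 (0.69), Thbs1 without M0 replicate 2 (0.63), Thbs4 without M1-8 h replicate 1 (0.51) or M1-12 h replicate 1 (0.53), Mmp12 without M1-12 h replicate 1 (-0.55) or M0 replicate 2 (-0.57), and Mmp13 without M1-12 h replicate 1 (-0.65). The difference in LPS response between genotypes was called for 0 of the 10 at either time, against 0.00827% of all genes, and 3 of 10 had an unadjusted p under 0.05 at each time, against 6.67% and 3.82% of all genes. Those 3 were Timp1, Thbs4 and Mmp25, each with the larger rise in wt. At M0 they had at most 1.12, 0.0204 and 1.89 CPM, so the added 1 CPM compresses the M0 end of these differences. Timp1 had an LPS log2 fold change of 5.82 at 8 h and 6.08 at 12 h in wt, and of 4.63 and 4.89 in Treml4-/- cells. For Timp1 the difference in response was 1.19 ± 0.30 at 8 h (adjusted p = 0.729) and 1.19 ± 0.30 at 12 h (adjusted p = 1.00).

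Within each library the summed MMP level per kb was set against the summed TIMP level, a ratio chosen after the values were seen. It was 6.71 and 5.50 in the wt M0 libraries and 6.53 and 7.74 in the Treml4-/- M0 libraries, which overlapped. Among the M1-8 h libraries, wt had ratios of 14.97 and 7.52 and Treml4-/- had 26.8 and 27.8. Among the M1-12 h libraries, wt had a mean of 5.32 ± 2.57 (SD, n = 2) with 7.13 as the higher value, and Treml4-/- had 15.5 and 11.0. The Treml4-/- libraries were higher at both LPS times. No test was run on a ratio chosen in this way. The ratio is of RNA levels, its size depends on the exon lengths used, and it carries no information on active protease.

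The rest of the pathway was read from 60 genes in 7 lists, of which 30 passed the filter on low values. At 8 h 8 of the 30 were called higher and 14 lower (76.9% of all genes called), and at 12 h 2 were higher and 11 lower (76.5%). With median of ratios scaling these counts were 15 higher and 5 lower at 8 h, and 12 higher and 6 lower at 12 h. From 8 h to 12 h 3 were higher and 9 lower (32.1%). Of 17 other MMPs, 3 passed the filter. Mmp10, a stromelysin, rose at 8 h (log2 fold change 0.93, adjusted p = 2.24e-05) and fell by 0.75 from 8 h to 12 h (adjusted p = 0.000370). Both other MMP inhibitors that passed the filter rose at 8 h, the membrane-anchored Reck by 0.93 (adjusted p = 1.85e-05) and the matrix-bound Timp3 by 0.55 (adjusted p = 0.00710), and neither was called at 12 h. The other thrombospondins had 1 member that passed the filter, and it was not called.

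Receptors, activators and clearance genes had 2 higher and 4 lower of 7 at 8 h, and 1 higher and 4 lower at 12 h, where 59.8% and 60.3% of all genes were called lower. The counts were 3 higher and 1 lower at each time with median of ratios scaling. The thrombospondin receptor Cd47 rose by 1.41 at 8 h (adjusted p = 1.28e-09) and 1.32 at 12 h (adjusted p = 2.15e-09). Furin, which activates membrane-type MMPs, rose by 1.09 at 8 h (adjusted p = 9.90e-07). Lrp1, the endocytic receptor that clears MMPs and thrombospondins, had log2 fold changes of -2.59 at 8 h (adjusted p = 1.74e-08) and -1.89 at 12 h (adjusted p = 2.88e-07). Cd36, the scavenger receptor that binds thrombospondins, had -1.24 at 12 h (adjusted p = 1.16e-07), and -0.39, not called, with median of ratios scaling.

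ADAM and ADAMTS proteases had 1 higher and 4 lower of 7 at 8 h, and 0 higher and 3 lower at 12 h (59.8% and 60.3% of all genes lower). Under median of ratios scaling 3 were higher and 3 lower at each time. Adam8, a leukocyte sheddase, had the largest change at 8 h, -1.82 (adjusted p = 1.42e-07), and rose by 1.62 from 8 h to 12 h (adjusted p = 2.76e-06). The sheddase Adam10 had log2 fold changes of -1.67 at 8 h (adjusted p = 1.72e-08) and -1.82 at 12 h (adjusted p = 7.50e-09), and Adam19 had -1.73 (adjusted p = 1.46e-07) and -3.74 (adjusted p = 2.06e-10). Adam15 had -1.46 at 12 h (adjusted p = 1.65e-09). All 4 matrix-degrading cathepsins were called lower at 8 h and 2 of 4 at 12 h, beside 59.8% and 60.3% of all genes. Only Ctsk stayed lower with median of ratios scaling at 8 h, and at 12 h none was lower and Ctsb was higher (0.55), so the direction of this group depends on the scaling. Ctsk, a collagen-degrading cathepsin, had -1.59 at 8 h (adjusted p = 7.03e-08) and -0.64 at 12 h (adjusted p = 0.000211), and with median of ratios scaling the 12 h value turned to 0.20. Ctsl had -1.04 at 8 h (adjusted p = 1.21e-05) and -1.27 at 12 h (adjusted p = 1.95e-06), and with that scaling it was called at neither time. Ctss had -0.81 at 8 h (adjusted p = 1.55e-05), and -0.011 with that scaling. Among matrix proteins, 2 were higher and 2 lower of 6 at 8 h, and 1 higher and 2 lower at 12 h, and with median of ratios scaling 3 higher and 0 lower, and 3 higher and 2 lower. Versican (Vcan), a large proteoglycan, rose by 4.03 at 8 h (adjusted p = 5.18e-11) and 2.05 at 12 h (adjusted p = 1.27e-08). Col18a1, which encodes a basement membrane collagen, had -0.95 at 8 h (adjusted p = 1.63e-07; -0.15, not called, with that scaling) and -1.67 at 12 h (adjusted p = 1.16e-09). Of the basement membrane collagen genes, Col4a2 had 0.54 at 8 h (adjusted p = 0.000569), and Col4a1 had -1.58 at 12 h (adjusted p = 6.09e-08). Between genotypes, 2 of the 30 were called, in the mean over the 3 time points (0.414% of all genes called). Spp1, which encodes osteopontin, was lower in wt by a log2 difference of -0.68 (adjusted p = 0.00647), and Col4a1 by -0.52 (adjusted p = 0.0337), which was not called with median of ratios scaling (-0.44).

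The genes most like each member in their level over the 12 libraries were found by Pearson r on log2(CPM + 1), among 8167 or 8168 genes whose condition means span at least 1 log2 unit. The libraries share the LPS time course, so these values are a description. Timp1 was nearest to A530040E14Rik (r = 0.997), Rhoh (0.996) and Bambi-ps1 (0.996), and Thbs4 to Dusp28 (0.995), Bambi-ps1 (0.993) and Timp1 itself (0.993). Thbs1 was nearest to Hilpda (r = 0.997), P2ry14 (0.996) and Nub1 (0.996). Mmp13 was nearest to Prkx (r = 0.996), Gm14490 (0.994) and Plek (0.994), Mmp14 to Procr (0.999), Tor3a (0.999) and Cxcl9 (0.999), and Mmp25 to Sipa1l1 (0.998), Usp18 (0.998) and Aldh1b1 (0.998). On the falling side, Timp2 was nearest to Cd5l (r = 0.999), Ramp1 (0.999) and Rogdi (0.999), and Mmp8 to E430025E21Rik (0.992), Rai14 (0.992) and Itga6 (0.991). Mmp12 had lower values, with Gm14548 (r = 0.871), Wwc2 (0.870) and Fam115a (0.857). Mmp9 was nearest to Ltf (r = 0.722), S100a9 (0.658) and Ngp (0.627), which are neutrophil genes.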

How the data were processed

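The authors aligned stranded, poly(A)-selected paired-end reads with STAR to mm10 (submitters' processing notes), counted them on genes with Subread, and deposited log2 CPM with a prior of 0.25 reads; the annotation, the versions and whether counting used strand are not given in the sources used here. The design had assumed CPM, so the deposited log2 values were turned back into CPM. Whole reads (within 0.1) came out for 100% of values in every library. A gene was tested where 2 or more libraries reached 1 CPM, which kept 12086 genes and all 10 members. limma 3.58.1 (R 4.3.3) modelled log2(CPM + 1) by condition with a mean-variance trend. Benjamini-Hochberg adjustment ran over every tested gene, and called genes had a limma adjusted p below 0.05 and differed 1.4-fold or more. Adding 1 CPM understates the change of weakly expressed genes. No replicate pair was within counting noise (lowest chi-square over its degrees of freedom 12.0), so none was merged. The fit was tested on simulated counts. Other steps used Python 3.11.15, scipy 1.17.1, pandas 2.3.3 and numpy 2.4.6.

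The 10 genes, the pathway and marker lists were chosen with earlier results of these data known. Named beside them are, per list, the up to 3 called genes of largest change in each LPS against M0 comparison and between genotypes, with Mmp10 and Adam8 also from 8 h to 12 h, and, per member, the 3 genes of highest r. Of the markers, Adgre1 and Acod1 were not found under those symbols. Exon lengths (all annotated exons of a gene, shared bases counted once) and overlaps came from GENCODE vM21 (GRCm38). Mmp12 shares 157 exon bases with Mmp1b and Thbs1 shares 208 with Gm29233, on the opposite strand; these neighbours had at most 0.0366 and 0.208 CPM. Alternatives were other pseudocounts, filters, scalings and priors, the deposited log2 values, voom on recovered reads, blocks on the replicate number or culture, fits to a comparison’s own libraries, no fold limit, and leaving out each library.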

Additional observations from a re-analysis of the deposited data

Results flagged for a closer look

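For Timp1, the genotypes stood apart in opposite directions at M0 and after LPS. Both wt libraries were below both Treml4-/- libraries at M0 and above them at M1-8 h and M1-12 h. The difference between the genotype effects, on the log2(CPM + 1) scale, was 1.19 between M1-8 h and M0 and 1.19 between M1-12 h and M0. Tested as an interaction with limma, the Benjamini-Hochberg adjusted p was 0.729 and 1.00, and the unadjusted p was 0.00204 and 0.00206. The M0 end rests on 30 to 55 reads per library.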

How the results depend on the processing

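Of 215 alternative values of the member counts, 203 stayed within 1.5 times the reported count. Among 2049 alternative values of single genes, 1972 kept direction and call. With wt against Treml4-/- at M1-12 h, 1 member was called with only the libraries of the comparison. Over the 3 time points 3 were called with median of ratios scaling, 2 with quantile normalization and 1 with no minimum fold. Leaving out each library gave 8 to 9 called members at 8 h, 8 to 10 at 12 h, 3 to 5 between the LPS times, 0 to 0 for wt against Treml4-/- at M0, 0 to 1 at M1-8 h and at M1-12 h, 0 to 3 over the time points, and 0 to 0 for both differences in response. The count-based voom fit on recovered reads called 8 members at 8 h (9704 genes in all) and 9 at 12 h (9578 genes), and 0 in each genotype comparison. Over all genes the count for the mean genotype difference, 50, went from 17 (no filter on low values) to 183 (without wt M0 replicate 1); it was 6 to 219 around 12 at M0, 5 to 598 around 11 at 8 h (highest without Treml4-/- M1-8 h replicate 1) and 6 to 79 around 16 at 12 h. Of all called genes in that mean difference, 20% were higher in wt, 52% under median of ratios scaling and 50% after quantile normalization.

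Signs turned, with median of ratios scaling, for Mmp9 (0.22 at 8 h, 0.20 at 12 h), Mmp12 (0.34 and 0.26) and, between genotypes at 12 h, Mmp14 (0.028) and Timp2 (0.051). With quantile normalization they turned for Mmp9 (0.36, 0.39, and 0.033 from 8 h to 12 h) and Timp2 between genotypes at 12 h (0.023). The cause was not tested. Of these values only that of Mmp12 at 12 h had been called. Leaving out single libraries turned the sign of uncalled values: Mmp9 at 8 h (-0.57 to 0.024) and from 8 h to 12 h (-0.11 to 0.015). Between genotypes at M0 these were Mmp8 (-0.47 to 0.20), Mmp9 (-0.66 to 0.52), Mmp12 (-0.64 to 0.0030), Mmp14 (-0.31 to 0.086), Timp2 (-0.064 to 0.17), Thbs1 (-0.12 to 0.66) and Thbs4 (-0.028 to 0.00019). At 12 h they were Mmp9 (-0.062 to 0.092) and Timp2 (-0.064 to 0.00064), and over the times Mmp9 (-0.12 to 0.28) and Mmp14 (-0.043 to 0.090). For the difference in response at 8 h they were Mmp8 (-0.61 to 0.060), Mmp9 (-0.22 to 0.96), Mmp12 (-0.49 to 0.16), Timp2 (-0.0056 to 0.39) and Thbs1 (-0.048 to 0.73). At 12 h they were Mmp8 (-0.71 to 0.12), Mmp9 (-0.51 to 0.68), Mmp12 (-0.59 to 0.054), Mmp13 (-0.81 to 0.27), Mmp14 (-0.15 to 0.25), Timp2 (-0.20 to 0.032) and Thbs1 (-0.052 to 0.73).

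With the replicate number as a block, 8, 9 and 4 members were called for LPS and 0 in each genotype comparison, the same counts as without it. The labels repeat the replicate numbers at each time of a genotype but do not state a pairing. Same-numbered libraries had correlations of -0.26 to 0.30 between genotypes (3 pairs) and -0.27 to 0.46 within a genotype (6 pairs). With 2 replicates per condition these values cannot settle whether the numbers pair the samples. With 2 libraries per condition, and at most 1 read of Thbs4 and 30 to 55 reads of Timp1 at M0, depth limits what can be said of those levels.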
